A study of Mus musculus with 4 samples.

Results

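Carboxylesterases are serine hydrolases that cleave ester and amide bonds. The genes described here are 10 mouse paralogs expressed in liver, Ces1b, Ces1c, Ces1d, Ces1e, Ces1f, Ces1g, Ces2a, Ces2c, Ces3a and Ces3b, taken by name out of 55487 gene identifiers and compared between PA and WT livers. PA mice were labelled as hypomorphic Pcca-/- with the A138T form. The product of Pcca is the alpha subunit of propionyl-CoA carboxylase, through which mitochondria dispose of propionyl-CoA. The WT and PA groups held 2 mice each, all female, 11 weeks old and on the FVB background, fed standard chow, and polyadenylated RNA was sequenced from frozen whole liver. What drives expression of the A138T form, the hour of collection and the feeding state are not known from the labels.

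Most carboxylesterases of mouse liver are made by hepatocytes and carry a signal that keeps them in the endoplasmic reticulum, where they act on drugs and other foreign esters and on stored lipid. The Ces1 enzymes include a secreted plasma esterase and hydrolases that release fatty acids from triacylglycerol for very low density lipoprotein assembly. Ces2 enzymes prefer esters with a small acyl group, and Ces3a and Ces3b are related to the human gene CES3.

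All 10 genes lie on chromosome 8 (GRCm38) in a pair of clusters 11.2 Mb apart. The 6 Ces1 genes are on the minus strand between Ces1b at 93056728 to 93080017 and Ces1g at 93302369 to 93337308. On the plus strand lie Ces2a at 104734003 to 104741634, Ces2c at 104847068 to 104854483, Ces3a at 105048601 to 105058413 and Ces3b at 105083753 to 105093929. All are annotated as protein-coding. Upstream sequences from RefSeq (GRCm38.p6) were read for 7 of the 10 genes (none for Ces1d, Ces1f and Ces3a), among them 2 of the 4 genes whose values differed most between the groups. The 250 bases before the start site are shown for Ces3b and Ces2c, which had low values in PA. They are also shown for Ces2a, the other Ces2 gene among the 10, and for Ces1b and Ces1c as the pair most alike in these bases. They run 5′ to 3′ on the strand of the gene, chr8:105083505-105083754 (plus) for Ces3b, chr8:104846818-104847067 (plus) for Ces2c, chr8:104733753-104734002 (plus) for Ces2a, chr8:93080018-93080267 (minus) for Ces1b and chr8:93131284-93131533 (minus) for Ces1c. Capitals mark the letters TATAAA in Ces3b and, in the other sequences, aligned identical runs of at least 8 bases between Ces2c and Ces2a and between Ces1b and Ces1c.
Ces3b: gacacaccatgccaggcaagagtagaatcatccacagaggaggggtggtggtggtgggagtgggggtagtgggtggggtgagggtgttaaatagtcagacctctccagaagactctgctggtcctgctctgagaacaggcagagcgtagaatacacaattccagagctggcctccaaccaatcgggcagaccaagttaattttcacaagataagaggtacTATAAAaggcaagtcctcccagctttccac
Ces2c: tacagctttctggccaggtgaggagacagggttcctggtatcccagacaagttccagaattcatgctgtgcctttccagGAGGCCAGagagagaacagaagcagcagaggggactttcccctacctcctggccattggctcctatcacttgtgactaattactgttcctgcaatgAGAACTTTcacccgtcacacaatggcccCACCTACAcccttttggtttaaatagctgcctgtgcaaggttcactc
Ces2a: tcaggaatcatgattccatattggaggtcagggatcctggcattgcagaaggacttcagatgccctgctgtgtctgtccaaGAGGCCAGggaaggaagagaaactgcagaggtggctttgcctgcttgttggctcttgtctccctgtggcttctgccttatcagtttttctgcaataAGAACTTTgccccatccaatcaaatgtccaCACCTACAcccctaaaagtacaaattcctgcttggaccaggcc
Ces1b: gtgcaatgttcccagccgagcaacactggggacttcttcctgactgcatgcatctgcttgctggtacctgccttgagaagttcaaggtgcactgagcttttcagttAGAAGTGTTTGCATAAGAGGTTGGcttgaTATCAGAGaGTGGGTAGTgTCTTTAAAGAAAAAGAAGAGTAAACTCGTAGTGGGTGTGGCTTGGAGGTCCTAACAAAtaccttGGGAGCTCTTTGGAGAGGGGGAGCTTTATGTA
Ces1c: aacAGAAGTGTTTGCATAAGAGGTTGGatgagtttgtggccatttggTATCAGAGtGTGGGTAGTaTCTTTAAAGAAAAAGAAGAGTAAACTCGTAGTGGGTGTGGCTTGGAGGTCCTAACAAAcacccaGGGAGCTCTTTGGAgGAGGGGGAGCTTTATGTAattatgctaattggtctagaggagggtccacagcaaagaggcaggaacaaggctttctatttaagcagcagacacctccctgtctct

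The upstream sequences of Ces1b and Ces1c were 84.0% identical over 163 aligned positions, and 131 bases lay in shared runs. Those of Ces2a and Ces2c were 65.3% identical over 251 aligned positions, with 24 bases in such runs. Of 3 motifs searched on both strands, TATAAA was found 30 bases before the start of Ces3b and 26 bases before that of Ces1g, in 2 of the 7 members, and in 12.4% of all 32851 windows of that length. The core letters of a STAT site, TTCNNNGAA, and of an antioxidant response element, TGACNNNGC, were in none of the 7 windows, against 7.02% and 10.2% of all windows. A match is only a run of letters in this window, and a missing one says nothing on the factor.

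Pcca was measured first as a check of the labels, at 60.3 and 58.9 CPM in WT and at 34.2 and 47.4 CPM in PA. CPM here are counts as a share of the TMM-scaled library size, on the usual CPM scale. The PA values were below both WT values, but the difference did not pass the test (log2 fold change -0.55, standard error 0.22, edgeR quasi-likelihood test, adjusted p = 0.398), and a gene count does not tell the A138T transcript from a normal one. Totals of gene counts ranged from 25575016 to 30110400, so that 3 counts were worth 0.0996 to 0.117 CPM. PA replicate 1 stood apart from the other libraries in a high share of mitochondrially encoded counts (13.6%, against 6.90 and 7.38% in WT and 8.98% in PA replicate 2) and of reads mapped to several places (13.5%, against 9.11 to 9.42% in the others). Hepatocyte identity was plain, with albumin at 120638 to 149441 CPM. The summed level of 10 hepatocyte markers was 160233 and 178109 CPM in WT and 150397 and 180488 CPM in PA. Most of that sum was albumin. Of the 10 markers, 6 had a positive and 4 a negative log2 fold change, with a median of 0.15.

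Between PA and WT livers the carboxylesterases did not move as a block. Ces3a, Ces3b, Ces2c and Ces1f had lower values in both PA livers, Ces2a was lower by a small margin, Ces1g was higher, and Ces1b, Ces1c, Ces1d and Ces1e overlapped between the genotypes. None of the 10 members, all of which were tested, passed an adjusted p of 0.05 in edgeR, and 4 had an unadjusted p under 0.05, all lower in PA. Among 14411 tested genes, 0.812% were called by edgeR (0.264% higher, 0.548% lower), and at an unadjusted p under 0.05 5.93% were lower and 5.88% higher. DESeq2 called 2 members, Ces1f and Ces2c, both lower, against 3.07% of tested genes called in either direction and 1.78% called lower, and limma-voom called 0, against 0.604%. The values of the genotypes did not overlap for 5 members that were lower and 1 that was higher in PA, while 21.9% of tested genes were lower and 21.3% higher without overlap. The median log2 fold change of the members was -0.22, and that of all tested genes was 0.00. In bulk liver, fewer cells of a type and less RNA per cell cannot be told apart.

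**Figure D1:**
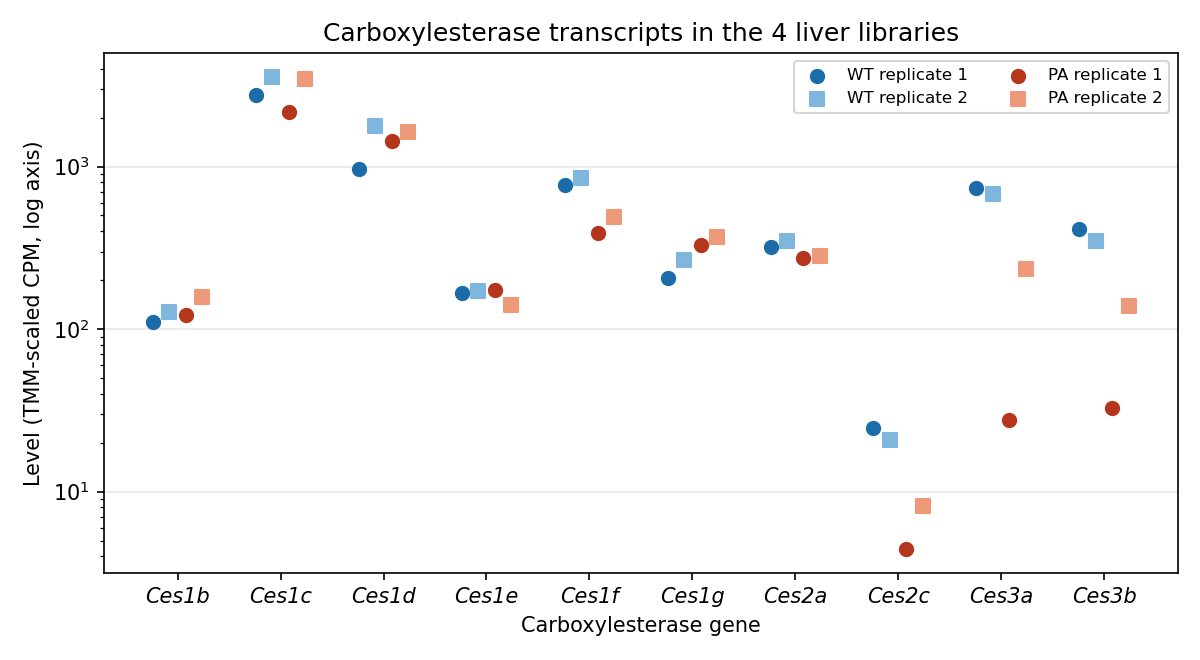
Level of each of the 10 carboxylesterase genes (TMM-scaled CPM, log axis) in each of the 4 libraries, blue for WT and red for PA, circles for replicate 1 and squares for replicate 2. The PA points of Ces3a (27.5 and 233 CPM) lie far apart and below the WT points (736 and 675 CPM), while those of Ces1c overlap with WT.

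Ces3a and Ces3b, neighbours 25.3 kb apart, showed the widest differences. Ces3a read 736 and 675 CPM in WT, and 27.5 and 233 CPM in PA. Both PA values were below both WT values, yet PA replicate 2 was 8.46 times PA replicate 1, and 99.9% of tested genes had a smaller spread between the PA livers. The fitted level was 5.43 times higher in WT (log2 fold change -2.44 ± 0.83 SE, with an adjusted p of 0.304 in edgeR). Ces3b was at 413 and 350.2 CPM in WT and at 32.9 and 138 CPM in PA. It again had its lowest value in PA replicate 1, with PA replicate 2 higher by 4.18 times. The fitted difference came to -2.16 on the log2 scale (standard error 0.59, edgeR adjusted p = 0.205).

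The size of both differences depended on which PA liver was in the fit. Without PA replicate 1, Ces3a had a log2 fold change of -1.60 and Ces3b of -1.47 (edgeR adjusted p = 0.013 and 0.0198), and without PA replicate 2 they were -4.68 and -3.54 (0.000242 and 0.000795). These fits leave 1 mouse in the PA group and take its variation from the WT pair, so a call gained there is no added support. The direction was the same in PA replicate 2, where the mitochondrial share was 8.98%. That share was 13.6% in PA replicate 1, and 6.9 and 7.38% in WT. A fit of all 4 libraries without mitochondrially encoded genes, chosen after seeing the data, gave -2.43 for Ces3a and -2.15 for Ces3b. That fit changes only which genes are counted. The part of the mitochondrial share in these differences and in the spread between the PA livers was not tested. With all 4 libraries, limma-voom gave a log2 fold change of -3.16 for Ces3a (adjusted p = 0.244).

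Ces3a and Ces3b are hard to tell apart by sequence, since their coding sequences are 95.3% identical, and 25.6% of all 50-base windows of Ces3a transcripts and 26.2% of those of Ces3b occur in the other gene. Reads with several mapping places are dropped by STAR's gene counts and shared out by RSEM. RSEM expected counts gave log2 fold changes of -2.43 for Ces3a and -2.14 for Ces3b, so both ways of counting gave nearly the same difference. Summed over both genes, the level was 1149.6 and 1025 CPM in WT and 60.4 and 370.2 CPM in PA, or 1087 ± 88.2 and 215 ± 219 CPM (SD, n = 2 each). The mean of the sum was 5.05 times higher in WT (two-sided exact permutation test, p = 0.333, the smallest that 2 against 2 allows). The ratio of Ces3a to Ces3b in CPM was 1.78 and 1.93 for the WT livers, while PA replicate 1 gave 0.834 and PA replicate 2 gave 1.69. Ces3a was thus more abundant than Ces3b in 3 libraries and less abundant in PA replicate 1, a comparison that also holds per length (TPM ratios of 2.05, 2.25, 0.845 and 1.92).

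**Figure D2:**
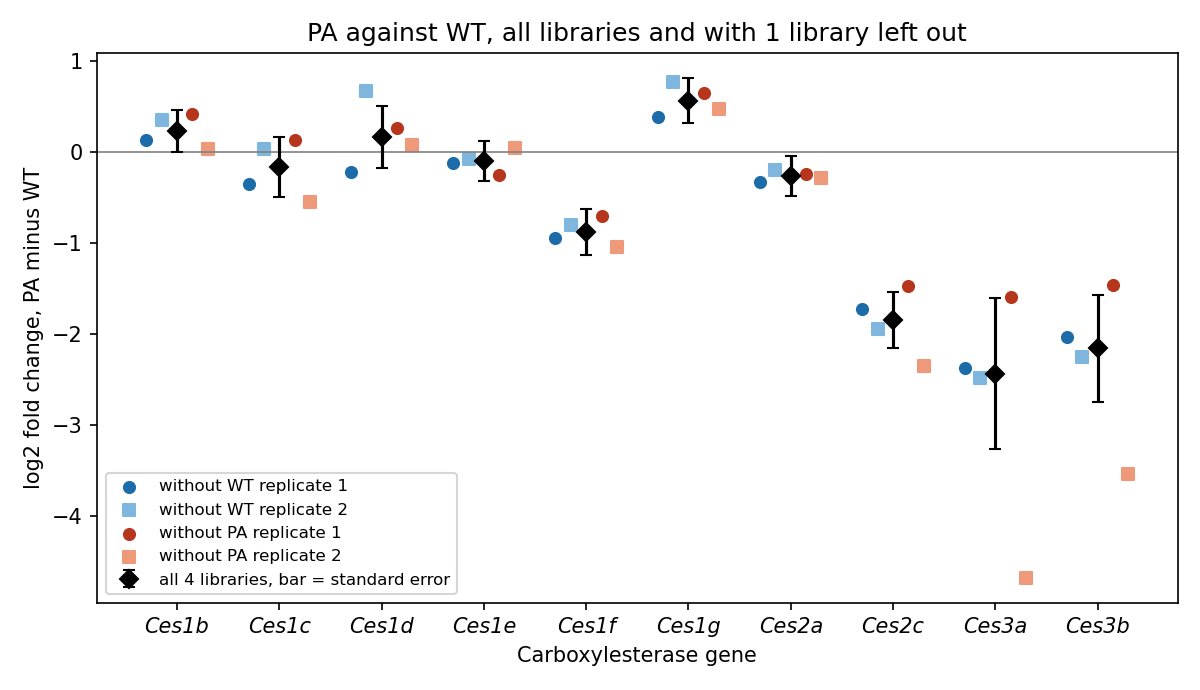
log2 fold change of PA against WT for each gene in the fit of all 4 libraries (black diamonds, bars are standard errors) and in the fits that leave out 1 library (coloured points). The points for Ces3a run from -4.68 to -1.60, while those for Ces2c run from -2.35 to -1.48 and those for Ces2a stay between -0.33 and -0.20.

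Ces2c, a hydrolase of neutral lipids in liver and gut, came closest to the threshold. It was at 24.5 and 20.8 CPM in WT and at 4.44 and 8.11 CPM in PA. The 2 PA libraries were both far below WT, and the fitted level was 3.60 times higher in WT (log2 fold change -1.85 ± 0.31 SE, with an adjusted p of 0.0566 in edgeR). Its lowest value was in PA replicate 1 as well. PA replicate 2 was 1.83 times PA replicate 1, and 91.1% of tested genes had a smaller spread between the PA livers. DESeq2 called Ces2c (adjusted p = 2.31e-05), and limma-voom did not (0.0555). Several edgeR settings moved it just past the threshold, with adjusted p of 0.0491 in unstranded counts and 0.0484 in RSEM expected counts, and over all alternatives adjusted p ranged from 3.99e-10 with no filter on low counts to 0.0624 with a filter at 1 CPM. Of the 50-base windows of Ces2c transcripts, 36.1% occur in other genes, most of them in the pseudogene Ces2d-ps. Ces2c was also the only member with more RSEM than STAR counts, by 1.02 to 1.11 times over the libraries, against 0.672 to 0.940 for the other 9. Ces2d-ps itself had 3 and 1 STAR counts in WT and 3 and 6 in PA.

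Ces2a, its more abundant paralog with a coding sequence 82.4% identical, was at 321 and 347 CPM in WT and at 274 and 279.8 CPM in PA. The genotypes did not overlap, but the margin was small and did not pass the test (log2 fold change -0.27 ± 0.22 SE, with an adjusted p of 0.706 in edgeR). Only 5.54% of tested genes had a smaller spread between the PA livers than Ces2a, so the distance of PA replicate 1 from PA replicate 2 was not shared by every carboxylesterase.

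The Ces1 genes gave values in both directions. Ces1f, a triacylglycerol hydrolase of hepatocytes, was at 768 and 845 CPM in WT and at 389 and 490.2 CPM in PA. Both PA libraries were below WT by more than the spread within either pair, and the fitted level was 1.83 times higher in WT (log2 fold change -0.88 ± 0.25 SE, with an adjusted p of 0.23 in edgeR). DESeq2 called Ces1f (adjusted p = 0.0286), and limma-voom did not (0.217). Ces1g, a lipid hydrolase whose loss in mice leads to fatty liver, was at 205 and 266 CPM in WT and at 327 and 369 CPM in PA. It was the only member higher in both PA livers than in both WT livers (log2 fold change 0.56 ± 0.25 SE, with an adjusted p of 0.438 in edgeR), and it did not pass the test in any of the fits made. Ces1f and Ces1g are next to each other in the cluster, so neighbouring genes had opposite signs.

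Ces1c, which encodes the secreted plasma esterase, was the most abundant member and was at 2768 and 3574 CPM in WT and at 2167 and 3452 CPM in PA. PA replicate 1 was the lowest library and PA replicate 2 lay between the WT libraries, and the sign of the log2 fold change (-0.17 ± 0.33 SE, with an adjusted p of 0.895 in edgeR) turned to 0.13 without PA replicate 1. Ces1d, the triacylglycerol hydrolase best known for mobilising stored lipid for secretion, was at 966 and 1771 CPM in WT and at 1435 and 1627 CPM in PA. Its widest spread was between the WT livers, and both PA values lay inside it (log2 fold change 0.16 ± 0.34 SE, with an adjusted p of 0.907 in edgeR), with -0.22 without WT replicate 1. Ces1e, known as egasyn for holding beta-glucuronidase in the endoplasmic reticulum, was at 167 and 170.5 CPM in WT and at 174 and 140.4 CPM in PA, so the PA libraries lay on either side of WT. Its log2 fold change of -0.10 turned to 0.04 without PA replicate 2. Ces1b was at 111 and 128 CPM in WT and at 122 and 158 CPM in PA, with overlap (log2 fold change 0.23, standard error 0.23). Coding sequences within Ces1 were 72.0 to 88.7% identical, highest for Ces1b and Ces1c, and 11.6 and 13.0% of the 50-base windows of those 2 genes occur in other genes. RSEM gave Ces1b 0.672 to 0.700 times its STAR counts, the lowest share of the members, so its level depends on the counting more than that of the others.

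**Figure D3:**
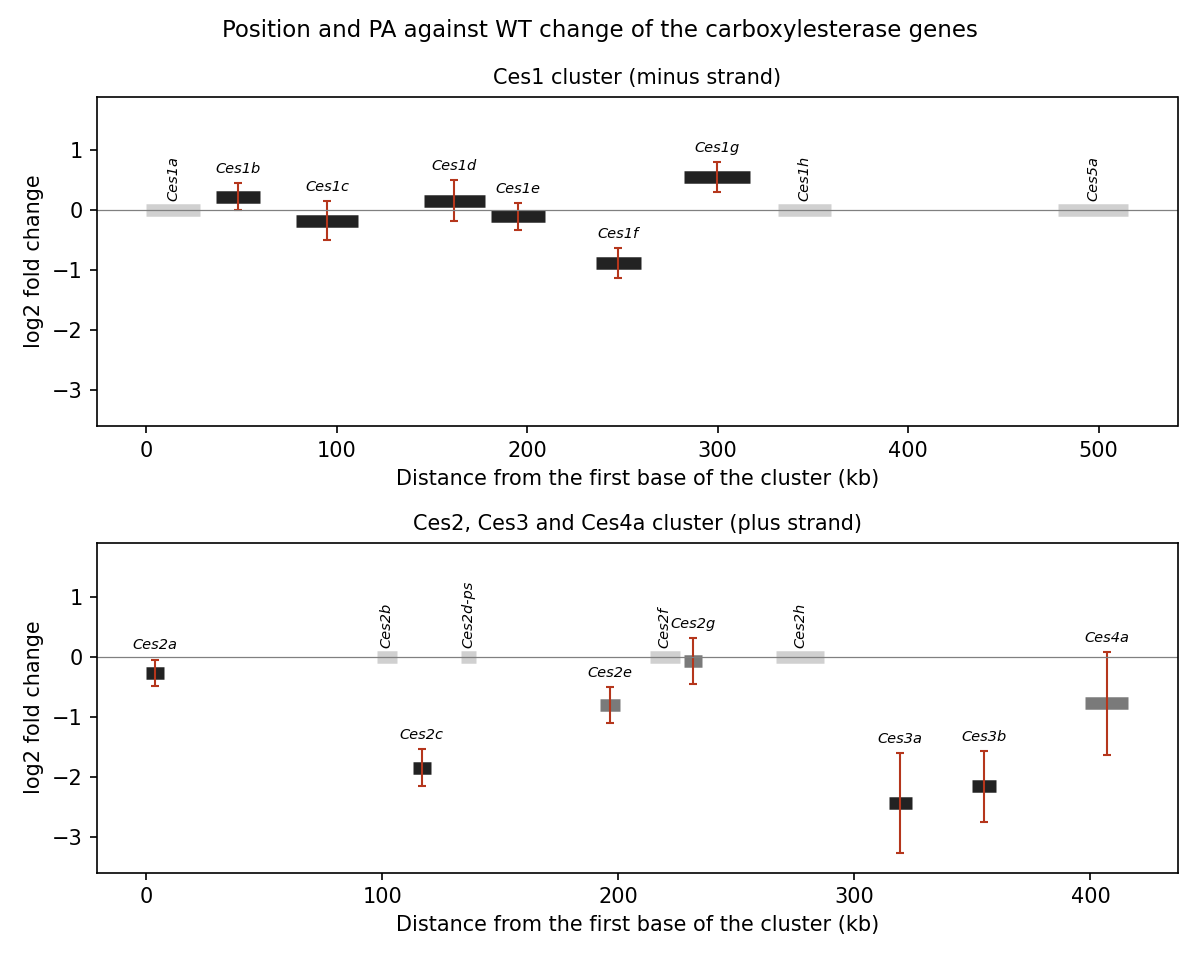
log2 fold change of PA against WT (bars show the extent of each gene, red lines the standard error) against the distance in kb from the first base of each cluster, with members in black, other tested family genes in grey and family genes too low to test in pale grey at 0. In the lower cluster Ces2c, Ces3a and Ces3b lie at -1.85, -2.44 and -2.16, with Ces2e at -0.81 and Ces2g at -0.07 between them.

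Values differed between neighbours within the clusters. Between Ces2c and Ces3a lie Ces2d-ps, Ces2e, Ces2f, Ces2g and Ces2h, none of them among the 10, and of these Ces2e and Ces2g had enough counts to be tested. Ces2e was at 297 and 243 CPM in WT and at 115 and 191 CPM in PA, lower in both PA livers (log2 fold change -0.81 ± 0.30 SE, with an adjusted p of 0.344 in edgeR). Ces2g was at 43.8 and 47.6 CPM in WT and at 25.5 and 61.7 CPM in PA, on both sides of WT (log2 fold change -0.07). Of the 8 tested protein-coding genes nearest to the clusters outside the family, edgeR, DESeq2 and limma-voom each called 0, none had an edgeR unadjusted p under 0.05, and their log2 fold changes ran from -0.56 to 0.59. Cbfb, which encodes a partner of the RUNX transcription factors and lies 20.6 kb beyond the last family gene, had a log2 fold change of -0.13. These flanking genes were picked by distance after the members' values were known.

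Per length, the order of the members was led by Ces1c in every library. In RSEM TPM, a share of transcripts within a library that is corrected for gene length, the WT means were 2071 for Ces1c, 821 for Ces1d, 519.8 for Ces1f, 465 for Ces3a, 222 for Ces2a, 217 for Ces3b, 111 for Ces1g, 105 for Ces1e, 57.4 for Ces1b and 16.9 for Ces2c. Among neighbours in that order, the WT libraries overlapped for Ces2a with Ces3b and for Ces1g with Ces1e, and for none of the other pairs. Ces3a was the fourth member in both WT livers, the sixth in PA replicate 2 and the ninth in PA replicate 1, and it took 11.8 and 8.64% of the members' summed TPM in WT but 0.602 and 3.59% in PA. Ces1c took 44.1 and 45.7% in WT and 46.1 and 52.3% in PA, and Ces1d took 14.3 and 20.8% in WT and 28.1 and 22.6% in PA. TPM is a share of the whole library, and for Ces1e the TPM values were lower in PA (107 and 103 in WT, 82.2 and 83.5 in PA) although its CPM values overlapped, so differences between the genotypes were tested in CPM, and TPM served to describe shares and order within each library.

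**Figure D4:**
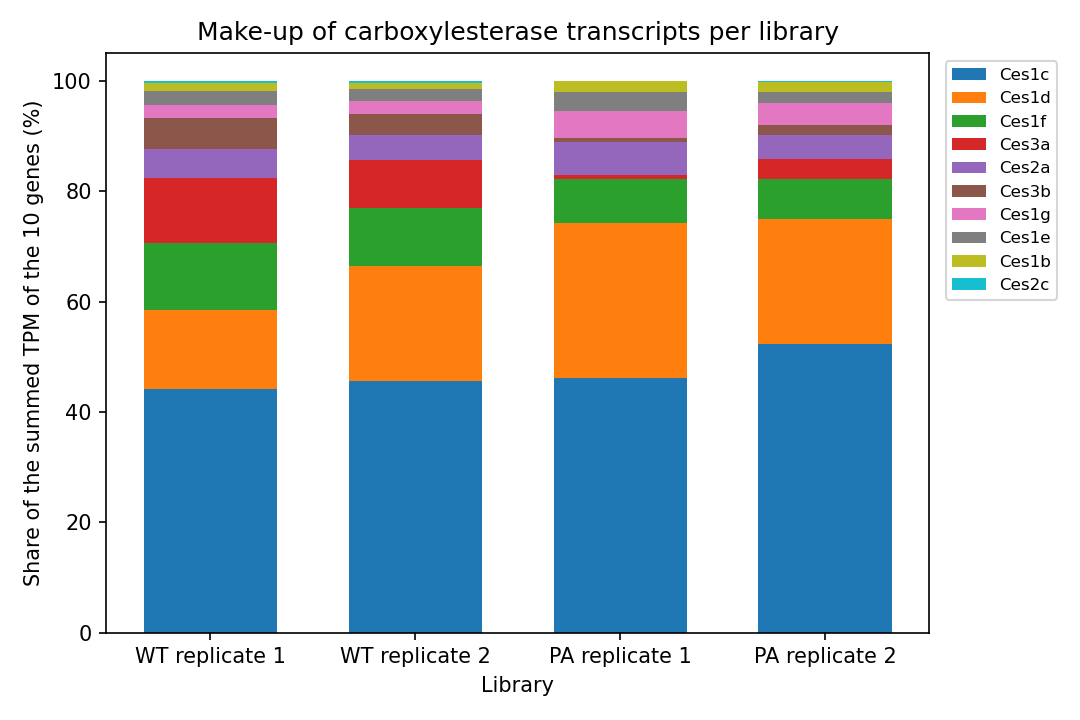
Share of the summed RSEM TPM of the 10 genes taken by each gene in each library, stacked to the full sum, with genes in the order of their WT level. Ces3a (red) takes 11.8 and 8.64% in WT but 0.602 and 3.59% in PA, and Ces1c (dark blue) takes 44.1 to 52.3% in every library.

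The family total overlapped between the genotypes. Summed over the 10 members, the level was 6480 and 8147 CPM in WT and 4953 and 6895 CPM in PA. The highest PA library lay between the WT libraries, and the means were 7314 ± 1179 and 5924 ± 1373 CPM (SD, n = 2 each; two-sided exact permutation test, p = 0.667, smallest possible 0.333). The members together took 0.671 and 0.811% of gene counts in WT and 0.485 and 0.681% in PA. The 6 Ces1 genes made up most of the sum and overlapped between the genotypes, at 4985 and 6754 CPM in WT and 4614 and 6237 CPM in PA.

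Other hydrolases of liver esters and lipids were read beside the family. Of 17 tested genes listed as other esterases and amidases, DESeq2 called 2, against 3.07% of all tested genes, and edgeR and limma-voom called 0. At an edgeR unadjusted p under 0.05, 2 were lower and 0 higher, against 5.93 and 5.88% of all tested genes. The median log2 fold change was -0.01. The 2 with the smallest p were Lipc, the hepatic lipase, and Aadac, the arylacetamide deacetylase, an esterase of the same membrane system. Lipc was at 387 and 378 CPM in WT and at 195 and 169.8 CPM in PA (log2 fold change -1.07, edgeR adjusted p = 0.112, DESeq2 0.00106). Aadac was at 1132 and 1222 CPM in WT and at 663 and 638 CPM in PA (log2 fold change -0.86, edgeR adjusted p = 0.225, DESeq2 0.0166). In both genes the PA livers lay close together and below WT, unlike Ces3a.

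Lipid droplet and lipoprotein assembly genes had mostly positive log2 fold changes. Of 23 tested genes, 20 had higher and 3 lower values, and the median log2 fold change was 0.28, against 0.00 for all tested genes. DESeq2 called 3, against 3.07% of all tested genes, and edgeR and limma-voom called 0. At an edgeR unadjusted p under 0.05, 4 were higher and 1 lower, against 5.88 and 5.93% of all tested genes. Plin3, a lipid droplet coat protein, was at 45.3 and 43.4 CPM in WT and at 84.1 and 88.8 CPM in PA (log2 fold change 0.96, edgeR adjusted p = 0.0923, DESeq2 0.00585). Plin4, of the same family, was at 1.79 and 1.06 CPM in WT and at 18.6 and 4.31 CPM in PA (log2 fold change 2.98, edgeR adjusted p = 0.133, DESeq2 2.92e-05). Its log2 fold change was 1.58 with PA replicate 1 left out (edgeR adjusted p = 0.0743) and 3.68 with PA replicate 2 left out (0.00143). Both perilipins were above WT in both PA livers, and DESeq2 called both while edgeR with all 4 libraries and limma-voom called neither.

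Lists of genes that respond to the receptors CAR and PXR and to NRF2, which are known to act on some carboxylesterase genes, were the pathway lists in which edgeR and limma-voom made calls. DESeq2 also made calls in the esterase and lipid droplet lists. All of these lists were chosen with earlier results of these data known. Their counts beside the shares of all tested genes are therefore no test of a list. Of 25 tested NRF2 target genes, edgeR called 3 higher, against 0.264% of all tested genes, and 0 lower. DESeq2 called 8, against 3.07%, and limma-voom 3, against 0.604%. At an edgeR unadjusted p under 0.05, 12 were higher and 1 lower, against 5.88 and 5.93% of all tested genes. The median log2 fold change was 0.46. The genes called by edgeR were Gsta1 and Gsta2, glutathione S-transferases, and Abcc4, an export pump. Gsta2 rose by 2.86 on the log2 scale, with a mean level (± SD, n = 2 each) of 17.9 ± 1.71 CPM for WT against 130.4 ± 44.1 CPM for PA (edgeR adjusted p = 0.00871), and Gsta1 rose by 4.52, with means of 0.252 ± 0.0330 and 5.83 ± 1.97 CPM (edgeR adjusted p = 0.00602). These paralogs can share reads. Of 21 tested CAR and PXR target genes, edgeR called 1 higher, Abcc4, which is also in the NRF2 list, against the same 0.264% of all tested genes. DESeq2 called 3, against 3.07% of all tested genes, and limma-voom 1, against 0.604%. At an edgeR unadjusted p under 0.05, 4 were higher and 0 lower, against 5.88 and 5.93%, and the median log2 fold change was 0.08. Abcc4 rose by 2.47 on the log2 scale, with a mean level (± SD, n = 2 each) of 1.89 ± 0.499 CPM for WT against 10.4 ± 3.51 CPM for PA (edgeR adjusted p = 0.0313).

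Of 18 tested transcription factors that govern drug metabolism in liver, edgeR, DESeq2 and limma-voom called 0, and the median log2 fold change was 0.05. At an edgeR unadjusted p under 0.05, 1 was lower and 0 higher, against 5.93 and 5.88% of all tested genes. Cux2, a repressor found mainly in female liver, was at 22.4 and 17.1 CPM in WT and at 0.471 and 6.09 CPM in PA (log2 fold change -2.57, edgeR adjusted p = 0.277; -1.69 with PA replicate 1 left out, -5.38 with PA replicate 2 left out). Like Ces3a it was lowest in PA replicate 1. Bcl6, a repressor found mainly in male liver, was at 4.92 and 2.51 CPM in WT and at 4.04 and 16.2 CPM in PA, with overlap (log2 fold change 1.44, edgeR adjusted p = 0.431; 0.11 with PA replicate 2 left out, 2.11 with PA replicate 1 left out). Of 3 tested genes for the retrieval of endoplasmic reticulum proteins and the partner of egasyn, edgeR, DESeq2 and limma-voom called 0 and none had an edgeR unadjusted p under 0.05. Gusb, the beta-glucuronidase held by egasyn, was at 15.5 and 17.0 CPM in WT and at 19.0 and 18.1 CPM in PA (log2 fold change 0.19), and Kdelr2, a retrieval receptor, had a log2 fold change of 0.11.

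Over the 4 libraries, the pattern of Ces2c was closest to those of Trim30d, Lifr and Rsph4a by the distance between centred log2 CPM values. Lifr, the receptor of leukemia inhibitory factor, was at 371 and 273 CPM in WT and at 56.7 and 111 CPM in PA (distance 0.187). The distance was 0.188 for Trim30d and 0.185 for Rsph4a. With 4 libraries many genes can come this close, and the distances describe these libraries only.

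Markers of other cell types that could carry carboxylesterase transcripts were measured beside the members. The intestinal list rested on Fabp2, which was at 101 and 97.0 CPM in WT and at 44.4 and 37.5 CPM in PA, while Lct, Sis and Alpi, which define the gut epithelium, had 0 counts in every library. Pancreas markers summed to 0.236 to 0.785 CPM, with Cpa1, Pnlip and Ctrb1 at 0. Adipocyte markers summed to 12.0 and 8.29 CPM in WT and 19.2 and 12.4 CPM in PA, nearly all of it Fabp4, with Plin1 and Lep at 0. The summed level was 556 and 494 CPM in WT and 243 and 356 CPM in PA for 8 Kupffer cell markers (7 of 8 with a negative log2 fold change), 16.4 and 13.8 CPM against 5.14 and 6.66 CPM for 6 B cell markers (5 of 6 negative), and 88.5 and 47.5 CPM against 11.9 and 16.8 CPM for 7 erythroid markers, of which 5 were tested and 2 were called lower, the beta-globin genes Hbb-bs and Hbb-bt. Summed levels were 323 and 298 CPM in WT against 253 and 259 CPM in PA for sinusoidal endothelial markers, led by Clec4g (log2 fold change -0.58). Of these 8 markers, 3 were positive and 5 negative, with a median of -0.05. Stellate cell markers, led by Dcn (0.15), gave 391 and 399.6 CPM in WT against 418 and 382 CPM in PA. Of these 8 markers, 7 were negative and 1 positive, with a median of -0.12. Cholangiocyte markers, led by Spp1, gave 34.3 and 48.3 CPM in WT against 29.8 and 32.6 CPM in PA. That sum followed Spp1 (log2 fold change -0.57), whereas 4 of the 5 tested cholangiocyte markers were positive (median 0.65). T and NK cell markers, led by Gzma, gave 3.87 to 4.76 CPM. Neutrophil markers, led by S100a9 and with Ngp at 0, gave 6.26 and 3.10 CPM in WT against 2.71 and 1.51 CPM in PA. Of the cell type lists, edgeR called members of the erythroid and intestinal lists only (Fabp2 in the latter, lower). DESeq2 called 2 of 8 Kupffer cell markers, 1 of 6 B cell markers and 4 of 5 tested erythroid markers. It also called 1 of 10 hepatocyte markers and Fabp2, against 3.07% of all tested genes. limma-voom called 1 erythroid marker, against 0.604%. The part of these cells in the carboxylesterase values was not tested.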

How the data were processed

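Poly(A) RNA of 4 livers, 2 per genotype, was analysed. The deposited gene counts were made with STAR 2.7.6a and the deposited expected counts, TPM and FPKM with RSEM 1.3.3, per the submitters' processing notes. The annotation release is not given in the sources used here; 55227 of 55487 identifiers matched GENCODE M21 (GRCm38), which gave symbols and positions. The count column of the strand that held over 80% of gene reads (96.96 to 97.08%) was used. The 4 summary lines of each STAR table, 28.11 to 34.32% of its reads, stayed out of totals.

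Counts of 14411 genes kept by filterByExpr were tested with edgeR 4.0.16 (TMM, quasi-likelihood test, prior count 0.125, Benjamini-Hochberg adjusted p under 0.05) in R 4.3.3, and with DESeq2 1.42.0 and limma 3.58.1 (voom) as alternatives. Standard errors are the size of the log2 fold change over the root of the F statistic. RSEM expected counts were rounded. On simulated counts with 2 libraries per group and 14411 genes, 32.9, 89.3 and 94.1% of genes changed by a log2 of 1, 2 and 3 were recovered. Each simulated gene was given the spread that the trend over all genes holds for its level. Genes that vary more than the trend, such as Ces3a and Ces3b, were thus not represented. The deposited TPM served for levels between genes, and the deposited FPKM for their order only. Coding sequences and upstream sequences were aligned with Biopython 1.88.

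The 10 members and all lists were chosen with earlier results of these data known. Named genes were all members, other family genes with at least 1 CPM, the called genes of each list or else up to 2 with the smallest p, the most abundant marker and the markers at 0 of each cell type list, Pcca, and the 3 genes nearest in pattern to the member with the smallest p. The series' design text calls the replicates biological. Replicates differed by more than counting noise (chi-square per degree of freedom 46.3 in WT and 135 in PA). Alternatives were other scalings, filters, tools and count columns, a replicate block and leaving out each library.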

Additional observations from a re-analysis of the deposited data

Results flagged for a closer look

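Reads on the strand opposite to Ces3b lie outside the stranded counts used for the comparison. They came to 73 and 67 reads in WT and 121 and 128 reads in PA, or 2.51 ± 0.178 CPM and 4.53 ± 0.313 CPM (SD, n = 2 each), a level above that of the control livers. They made up 0.573 and 0.746% of the reads of both strands in WT and 12.6 and 3.03% in PA. Reads of the sense strand went the other way, so the difference on this strand was not a fixed share of them. The other 9 members had at most 1.28 CPM on that strand. The difference was not tested.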

How the results depend on the processing

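Of 140 log2 fold changes of members recomputed over 14 settings, 115 kept their direction and side of the threshold, 21 gained a call and 4 changed sign. The number of genes called was 117 (38 higher, 79 lower), 442 (186, 256) with DESeq2, 902 (414, 488) with no filter, 318 (126, 192) with the replicate block, and 155 to 500 (50 to 239, 105 to 261) when each library was left out, with 221 (82, 139) when WT replicate 2 was left out, 303 (129, 174) without PA replicate 1 and 500 when PA replicate 2 was left out. The number of members called was 0, against 2 with DESeq2, 4 with no filter, 1 each with unstranded counts, RSEM expected counts and, chosen after seeing the data, without mitochondrially encoded genes, and 1 to 4 when each library was left out. The cause was not tested, except that the last fits leave 1 sample in a group, assumed to vary like the other group. Leaving out 1 library at a time turned the sign of 5 log2 fold changes, which ran from -0.55 to 0.13 for Ces1c (0.03 with only WT replicate 1 in its group, 0.13 with only PA replicate 2), from -0.22 (WT replicate 1 out) to 0.67 for Ces1d, from -0.26 to 0.04 (PA replicate 2 out) for Ces1e, from -0.85 to 0.44 for Ces2g (0.00 with WT replicate 2 out) and from -0.27 to 0.41 for Kdelr2 (-0.00 with WT replicate 2 out). The log2 ratio of the members' summed CPM was -0.30 and ran from -0.56 to -0.08.

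The replicate numbers are not said to pair mice across genotypes, and deviations of equal numbers had a correlation of -0.10 across genes. With the replicate block, 3 members were called, Ces2c (edgeR adjusted p = 0.00574), Ces3a (0.0211) and Ces3b (0.0151). With 2 mice per group, the simulated recovery at a log2 of 1 was 32.9%. Smaller differences were not simulated, nor were genes that vary more than the trend over all genes.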

Other observations

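Family genes outside the 10 members were mostly near the floor. Ces2h, of the Ces2 cluster, had 5 and 6 counts in WT and 0 and 0 in PA, and Ces4a had 17 and 20 counts in WT and 1 and 21 in PA. Ces1a had 9 and 3 counts in WT and 9 and 2 in PA, Ces2b 1 and 2 against 1 and 5, and Ces2f 0 and 0 against 1 and 0. Ces1h and Ces5a had 0 counts in every library, which allows a level of up to 0.0996 to 0.117 CPM (3 counts, counting error only).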
